A study of Homo sapiens with 8 samples.

Results

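The mRNAs of 9 subunits of the Polycomb repressive complexes, EZH1, EZH2, EED, SUZ12, RING1, RNF2, BMI1, PCGF3 and CBX8, were followed through a block of transcription in cells with and without knockdown of RBMS1. Every transcript whose RefSeq accession belongs to one of these 9 genes was taken, which gave 13 transcripts, all of them listed for both cell populations. They stand among 12480 genes and 19237 transcripts with a gene symbol and a value in both populations. EZH2 had 4 listed transcripts, EED had 2, and the other 7 genes had 1 each.

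The cells were SW480, an established human colorectal adenocarcinoma line. They stably expressed an shRNA against RBMS1, a single-stranded nucleic acid binding protein that acts on mRNAs, or a control shRNA. The series text names the RBMS1 clones TRCN0000074936 and TRCN0000291051, and the protocol of the samples names the first alone, so which cells the knockdown libraries came from is not settled by the labels. The groups were RBMS1 shRNA after 9 h of alpha-amanitin at 10 µg/mL, RBMS1 shRNA at 0 h without the drug, control shRNA after 9 h of alpha-amanitin, and control shRNA at 0 h without it, with 2 total RNA libraries each and 8 in all. Alpha-amanitin stops RNA polymerase II, so that the level of an mRNA at 9 h relative to 0 h follows how long its existing copies last. The series text calls the line a breast cancer line, whereas 0 of 5 breast markers were listed in the tables. Of 10 colon epithelial markers, EPCAM, CDH1, KRT8, KRT18, KRT20, CDX2 and VIL1 were listed, 7 in all, and CDX1, LGALS4 and CDH17 were not. The filter that decided which transcripts were listed is not known, so a marker not listed is not shown to be unexpressed.

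The authors' deposited tables hold 1 value per transcript and population, read here as the log2 ratio of the level at 9 h to that at 0 h, with the 2 libraries of each group already combined. A value below 0 is read as a lower level at 9 h relative to the other RNAs, although how the libraries were scaled is not given in the sources used here. Ratios of the level at 9 h to that at 0 h given below are likewise relative, not absolute amounts of mRNA. No value per library, depth or p-value is in these tables, so no difference reported here could be set against the spread between replicates, and no test was made. The tables hold ratios within a population and therefore no measure of how far RBMS1 itself was reduced.

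Polycomb proteins keep developmental genes silent. Polycomb repressive complex 2 (PRC2) places methyl groups on lysine 27 of histone H3. Its catalytic subunit is EZH2 or its paralog EZH1, and both need SUZ12, the scaffold, and EED, which binds the methylated histone and stimulates the enzyme. Polycomb repressive complex 1 (PRC1) attaches ubiquitin to histone H2A through RING1 or RNF2, an E3 ligase pair, each joined to a PCGF protein such as BMI1 or PCGF3. CBX8 is a chromodomain protein that reads the mark of PRC2 in the canonical form of PRC1. EZH2 and BMI1 are often abundant in proliferating and tumour cells.

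The EZH2 transcripts differ by coding segments that tell them apart in the results below, and these segments are shown first, 5′ to 3′ on the strand of the gene, from the GENCODE release 29 transcripts on GRCh38. They lie on the minus strand of chromosome 7 and differ at 3 places in the coding sequence. NM_001203248 lacks 27 nt (9 codons) at the end of exon 3, chr7:148846470-148846496, relative to NM_001203247. NM_152998 lacks the whole of exon 4, 117 nt (39 codons) at chr7:148832634-148832750. NM_004456 carries 15 additional nt (5 codons) at the end of exon 8, chr7:148826454-148826468. Capitals mark the segment that is present in some transcripts and absent from others, and lower case the 10 bases on each side.

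EZH2 segment absent from NM_001203248: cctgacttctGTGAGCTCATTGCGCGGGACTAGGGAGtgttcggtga

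EZH2 exon absent from NM_152998: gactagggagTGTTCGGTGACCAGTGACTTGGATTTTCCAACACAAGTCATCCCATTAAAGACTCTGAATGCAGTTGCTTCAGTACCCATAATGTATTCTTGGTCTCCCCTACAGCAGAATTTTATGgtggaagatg

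EZH2 segment present in NM_004456 alone: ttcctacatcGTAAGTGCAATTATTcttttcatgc

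The paralogous catalytic subunits of PRC2 lay apart in both populations. EZH1 (chromosome 17, 42700275 to 42745040, GRCh38) was at −0.98 in knockdown cells and −0.95 in control cells in the authors' deposited tables. This is 0.508 of its level at 0 h in knockdown cells and 0.519 in control cells. Both values were low for an mRNA in these tables, with 13.4% of all transcripts lower in knockdown cells and 14.8% lower in control cells. The populations were close to each other, with a centred difference of −0.02. The centred difference is the knockdown value minus the control value, less the median of that difference over all genes, −0.0168.

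EZH2 (chromosome 7, 148807383 to 148884291) lay higher. NM_004456, the form with the 15 additional nt, was at 0.19 in knockdown cells and 0.45 in control cells in the authors' deposited tables. NM_152998, which skips exon 4, was at 0.03 in knockdown cells and 0.25 in control cells in the authors' deposited tables. NM_001203247 was at 0.19 in knockdown cells and −0.13 in control cells in the authors' deposited tables. These 3 transcripts thus stayed within 0.5 of 0 in both populations, and their centred differences were −0.25, −0.20 and 0.34.

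The fourth EZH2 transcript, NM_001203248, which lacks the 27 nt of exon 3, stood apart. It was at 0.69 in knockdown cells and 3.21 in control cells in the authors' deposited tables, and its level at 9 h was 1.61 times that at 0 h in knockdown cells and 9.27 times in control cells. Its centred difference was −2.51, the only one of the 13 Polycomb transcripts with a size of 1 or more. Over all transcripts, 8.68% had a centred difference of −1 or less and 8.97% one of 1 or more. The 2417 stretches of 50 nt (50-mers) in this transcript include 58, or 2.40%, that occur in no other listed EZH2 transcript. NM_001203247 has 0 such 50-mers of its own, NM_004456 has 64 and NM_152998 has 48, so nearly all sequence of this length is common to several EZH2 transcripts, and how the authors' counting divided such reads is not given in the sources used here.

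As the mean of its 4 transcripts, EZH2 was at 0.27 in knockdown cells and 0.95 in control cells, with SDs among transcripts of 0.28 in knockdown cells and 1.53 in control cells. Transcripts of a gene share exons and reads and are not replicates. The centred difference of EZH2 was −0.66 over the 4 transcripts and −0.04 without NM_001203248, a choice made after its value was seen. EZH1 minus EZH2 was −1.25 in knockdown cells and −1.89 in control cells, and every EZH1 value was below every EZH2 value. Without NM_001203248 the EZH2 mean was 0.14 in knockdown cells and 0.19 in control cells, so the wider gap in control cells rests on that transcript.

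**Figure D1:**
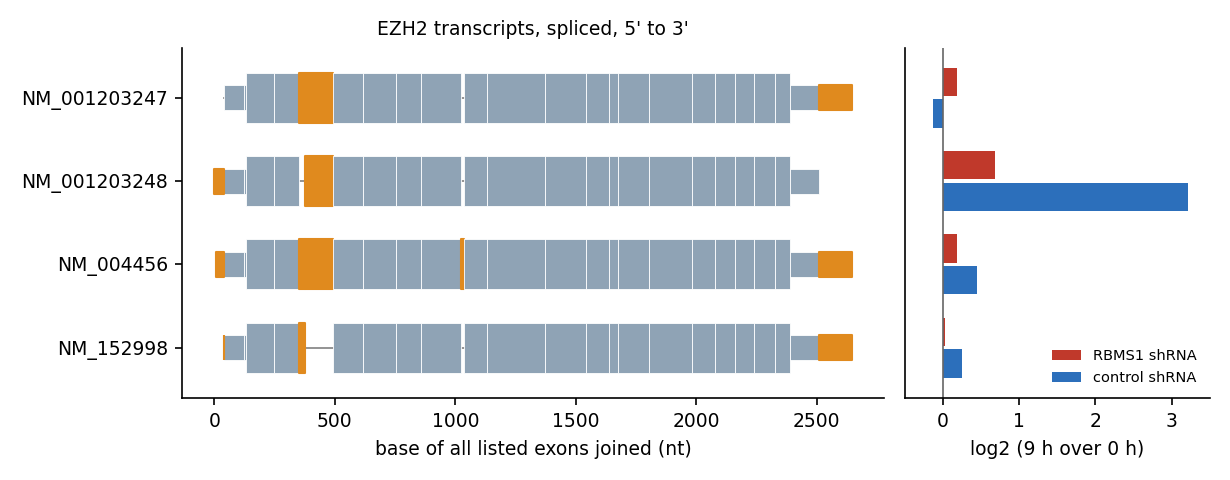
Spliced EZH2 transcripts drawn to scale (left, bases of all listed exons joined, thick for coding and thin for UTR, orange where a base is missing from at least 1 listed EZH2 transcript) beside the deposited log2 ratio of 9 h to 0 h (right, 1 bar per population, no error since libraries were combined). NM_001203248 was at 0.69 in knockdown cells and 3.21 in control cells, and the other 3 transcripts stayed within 0.5 of 0.

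EED (chromosome 11, 86244753 to 86287615) had a low and a high transcript in both populations. NM_003797 was at −1.25 in knockdown cells and −1.33 in control cells in the authors' deposited tables. Its relative level at 9 h was 0.42 of that at 0 h in knockdown cells and 0.399 in control cells. NM_001308007 was at 1.35 in knockdown cells and 0.95 in control cells in the authors' deposited tables, or 2.55 times its level at 0 h in knockdown cells and 1.94 times in control cells. The order was the same in both tables, and the gap between the transcripts was 2.60 in knockdown cells and 2.28 in control cells.

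Gaps of 2 or more in both populations were found in a small share of the genes with exactly 2 transcripts. Of the 2879 genes with exactly 2 transcripts in both tables, 158 had a gap of 2 or more in both populations. Of the 2879, 114, or 3.96%, EED included, also had the transcripts in the same order in both. Of the 4407 genes with 2 or more transcripts, 16.3% had a range at least as wide as that of EED in knockdown cells and 18.3% in control cells, against a median range of 0.98 in knockdown cells and 0.94 in control cells. Whereas the transcripts of EED differed from each other, each differed less between the populations, with centred differences of 0.09 for NM_003797 and 0.41 for NM_001308007. The latter was above those of 79.9% of all transcripts. The EED mean, 0.05 in knockdown cells and −0.19 in control cells, describes neither transcript.

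Among other differences, the GENCODE transcripts paired with NM_003797 and NM_001308007 have different ends. That for NM_003797 has a 5′UTR of 686 nt and a 3′UTR of 211 nt. That for NM_001308007 has a 5′UTR of 7 nt and a 3′UTR of 288 nt. The GENCODE transcript for NM_003797 begins at 86244544, before the start of the gene span given above, 86244753. These ends may therefore not be those of the transcripts the authors used. Of the 50-mers of the GENCODE transcript for NM_003797, 33.4% are absent from that for NM_001308007. In the other direction the share is 12.1%, and both shares count the ends. Whether the values follow these differences was not tested.

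SUZ12 (chromosome 17, 31937007 to 32001038), the scaffold of PRC2, had the highest centred difference of the 9 genes. It was at −0.31 in knockdown cells and −1.14 in control cells in the authors' deposited tables. Its relative level at 9 h was 0.808 of that at 0 h in knockdown cells and 0.454 in control cells. The centred difference was 0.85, and 93.7% of all genes had a lower one. SUZ12 shared 430 of its 4442 50-mers, or 9.68%, with the pseudogene SUZ12P1, which was at 0.39 in knockdown cells and 0.25 in control cells in the authors' deposited tables. Reads from these stretches could have been split between the gene and the pseudogene, so the values of SUZ12 are uncertain to that extent.

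The pair of E3 ligases of PRC1 differed less than the catalytic pair of PRC2. RING1 (chromosome 6, 33208500 to 33212716) was at −0.09 in knockdown cells and −0.59 in control cells in the authors' deposited tables. Its centred difference of 0.52 exceeded those of 88.3% of genes. RNF2 (chromosome 1, 185045558 to 185102603), also known as RING1B, was at −0.28 in knockdown cells and −0.30 in control cells in the authors' deposited tables. RNF2 was thus nearly the same in both populations, at a centred difference of 0.03. RING1 minus RNF2 was 0.19 in knockdown cells and −0.30 in control cells, so their order turned.

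BMI1 (chromosome 10, 22321099 to 22331706), which with its paralog PCGF2 is a PCGF protein of canonical PRC1, differed between the populations in the other direction from RING1 and SUZ12. It was at −0.43 in knockdown cells and 0.23 in control cells in the authors' deposited tables, which is 0.744 times its level at 0 h in knockdown cells and 1.17 times in control cells. Its centred difference of −0.64 was below those of all but 8.08% of genes. In the GENCODE annotation, 952 of 3379 50-mers of BMI1, or 28.2%, also occur in the read-through gene COMMD3-BMI1 on the same strand. The listed transcript of COMMD3-BMI1, whose own sequence was not compared, was at −0.58 in knockdown cells and −0.25 in control cells in the authors' deposited tables. It thus lay below 0 in both populations while BMI1 did so in knockdown cells alone. Reads from the shared stretches could have been split between the genes, so the values of BMI1 are uncertain to that extent, as is this contrast.

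PCGF3 (chromosome 4, 705832 to 770089), a PCGF protein of variant PRC1, was at −0.40 in knockdown cells and −0.07 in control cells in the authors' deposited tables. Its centred difference was −0.32, on the same side as that of BMI1. BMI1 minus PCGF3 was −0.02 in knockdown cells and 0.30 in control cells. Antisense transcripts annotated on the opposite strand cover 8.36% and 1.42% of the exonic bases of PCGF3, and whether reads were counted by strand is not given in the sources used here. CBX8 (chromosome 17, 79792132 to 79797077) was at −0.47 in knockdown cells and −0.28 in control cells in the authors' deposited tables. Its centred difference was −0.18.

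**Figure D2:**
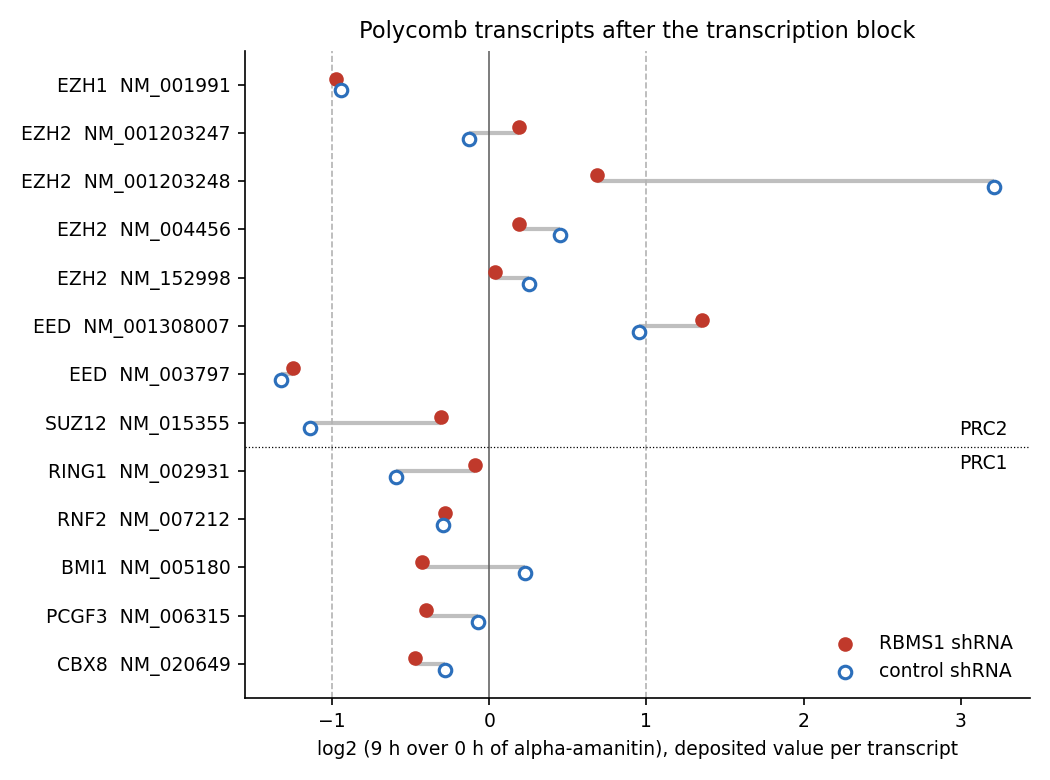
Deposited log2 ratio of 9 h to 0 h for each of the 13 Polycomb transcripts, with RBMS1 shRNA cells as filled red points and control shRNA cells as open blue points, and dashed lines at −1 and 1. EZH1, EED NM_003797 and RNF2 lay close together in the populations, while EZH2 NM_001203248, SUZ12, BMI1 and RING1 lay apart by 0.5 or more.

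Counts of Polycomb transcripts past 1 in size were near the shares over all transcripts. In knockdown cells 1 of 13 Polycomb transcripts lay at −1 or below, where 13.0% of all transcripts did, and 1 lay at 1 or above, where 8.63% did. In control cells 2 of 13 lay at −1 or below, where 13.8% did, and 1 at 1 or above, where 8.29% did. The transcripts at −1 or below were EED NM_003797 in both populations and SUZ12 in control cells. Of the 13, 7 were below 0 in both populations, 4 above 0 in both, and 2, BMI1 and EZH2 NM_001203247, changed sign.

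Counted over genes, 0 of 9 lay at −1 or below in knockdown cells, where 9.20% of all genes did, and 1 of 9, SUZ12, in control cells, where 9.74% did. At −0.5 or below lay 1 of 9 in knockdown cells, where 23.9% of all genes did, and 3 of 9 in control cells, where 24.8% did. None of the 9 reached 1, against 4.06% of all genes in knockdown cells and 3.49% in control cells. From low to high, the order in knockdown cells was EZH1, CBX8, BMI1, PCGF3, SUZ12, RNF2, RING1, EED and EZH2. In control cells it was SUZ12, EZH1, RING1, RNF2, CBX8, EED, PCGF3, BMI1 and EZH2. Since no spread over libraries is known, which neighbours in these orders differ beyond it cannot be said.

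The median over the 9 genes was −0.31 in knockdown cells and −0.28 in control cells, against medians over all genes of −0.06 in knockdown cells and −0.07 in control cells. The 5 PRC1 genes had a median of −0.40 in knockdown cells, with a range of −0.47 to −0.09, and of −0.28 in control cells, with a range of −0.59 to 0.23. The 4 PRC2 genes had a median of −0.13 in knockdown cells, with a range of −0.98 to 0.27, and of −0.57 in control cells, with a range of −1.14 to 0.95. Between the populations the median was thus lower in knockdown cells for PRC1 and higher for PRC2. These medians do not rest on the same genes in both populations. The median centred difference was −0.18 for PRC1 and 0.12 for PRC2, and each complex had genes on both sides of 0. The scale after a block of transcription is relative, and the mRNAs of 77 cytosolic ribosomal proteins, set here as another reference, had medians of 0.37 in knockdown cells and 0.41 in control cells. Relative to them the median of the Polycomb genes was −0.68 in knockdown cells and −0.69 in control cells. On that scale EZH2 in knockdown cells at −0.10, EED in knockdown cells at −0.32 and BMI1 in control cells at −0.19 turned negative.

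The difference between the populations was under 1 in size for all 9 genes and under 0.5 for 5 of them. SUZ12 and RING1 reached 0.5, where 12.4% of all genes did, and EZH2 and BMI1 lay at −0.5 or below, where 10.8% did, so 4 of 9 were past 0.5 in size. The place of EZH2 among these rests on NM_001203248, without which its centred difference was −0.04. Of all genes, 4.16% had a centred difference of −1 or less and 4.87% one of 1 or more. SUZ12, RING1, EED and RNF2 were above 0, and EZH2, BMI1, PCGF3, CBX8 and EZH1 below 0. The median over the 9 genes was −0.02, against 0 over all genes by construction, with quartiles over all genes of −0.19 and 0.23.

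**Figure D3:**
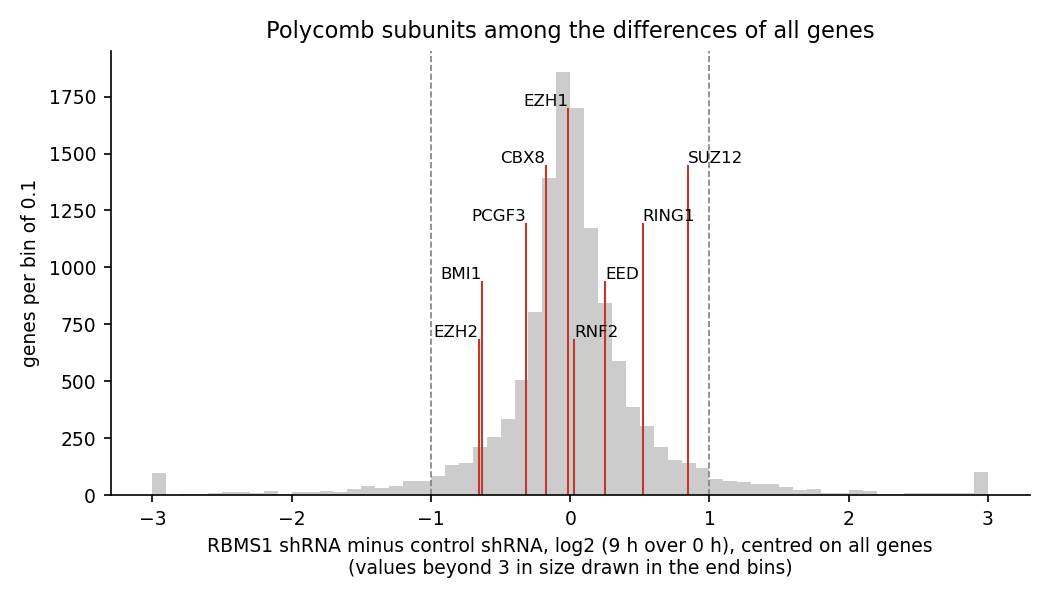
Centred difference between RBMS1 shRNA and control shRNA cells for all 12480 genes (grey, genes per bin of 0.1 on the log2 scale, values beyond 3 in size drawn in the end bins), with the 9 Polycomb genes as red lines whose heights carry no value. The 9 genes lay between −0.66 and 0.85, inside the dashed lines at −1 and 1.

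The 3′UTRs of the GENCODE transcripts paired with the 13 listed transcripts fell into short and long ones. The motifs below are shown because proteins that bind AU-rich and Pumilio elements act on mRNA decay. EZH2, EED and RING1 have 3′UTRs of 121 to 323 nt, and EZH1, SUZ12, RNF2, BMI1, PCGF3 and CBX8 have 3′UTRs of 1942 to 4561 nt, where the median of 18716 listed coding transcripts was 816 nt. The letters searched, on the strand of the mRNA only, were ATTTA, the core of AU-rich elements, TATTTAT, a longer form that contains it, TGTANATA, the Pumilio element, and ATATA, a core reported for RBMS1. Matches of different motifs may overlap. TATTTAT occurs in 28.0% of the 18716 3′UTRs, TGTANATA in 23.2%, ATATA in 52.4% and ATTTA in 64.0%.

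SUZ12 holds 3 matches of TGTANATA, 2 of TATTTAT, 5 of ATTTA and 5 of ATATA. Those of the longer motifs are printed as DNA on the plus strand of chromosome 17 with the match in capitals, and their positions count from the first base after the stop codon.

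SUZ12 TATTTAT at position 1208, chr17:32000200-32000228: ttcatattcttTATTTATaaaggatcaat

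SUZ12 TGTANATA at position 1231, chr17:32000223-32000252: atcaatgctgcTGTAAATAcaggtattttt

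SUZ12 TGTANATA at position 1351, chr17:32000343-32000372: aatttataaaaTGTAAATActgatttgact

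SUZ12 TGTANATA at position 2006, chr17:32000998-32001027: tcaaatgatttTGTACATAaagttcaataa

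SUZ12 TATTTAT at position 1843, chr17:32000835-32000863: ccctttgtttcTATTTATaaaaaaagtgc

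BMI1 holds 2 matches of TATTTAT and none of TGTANATA, with 9 of ATTTA and 6 of ATATA. At its position 731 a match of ATATA runs into one of TATTTAT, shown here on the plus strand of chromosome 10.

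BMI1 ATATA at position 731, chr10:22330261-22330289: cagtattgtatgATATAtttataaatgct

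BMI1 TATTTAT at position 1241, chr10:22330772-22330800: aaaatagaagcTATTTATtatgagcttct

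RNF2 holds 10 matches of ATATA, the most of the 9 genes, and has a place at which a Pumilio element runs into an AU-rich heptamer, on the plus strand of chromosome 1.

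RNF2 TGTANATA at position 1393, chr1:185101683-185101712: tgtctagtcatTGTAAATAtttatctgtca

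PCGF3, with the longest 3′UTR at 4561 nt in its paired GENCODE transcript, holds 16 matches of ATTTA and 4 of TATTTAT. That transcript ends at 770640, past the end of the gene span given above, 770089, and the ATTTA match at position 4308 lies beyond it. The length and counts may therefore not be those of the PCGF3 transcript the authors used. CBX8 holds 2 of TGTANATA and 5 of ATATA. EZH1 holds none of the 4 motifs in 2257 nt, at an A+T content of 47.1%, and RING1 none in 323 nt, at 48.3%. Both EED 3′UTRs hold 2 matches of ATTTA and none of the others. The EZH2 3′UTRs of 261 nt hold 2 matches of ATTTA, and the shorter one annotated for NM_001203248, of 121 nt, holds 1. A match is a run of letters, binding at these places was not measured, and no relation between matches and values was tested.

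**Figure D4:**
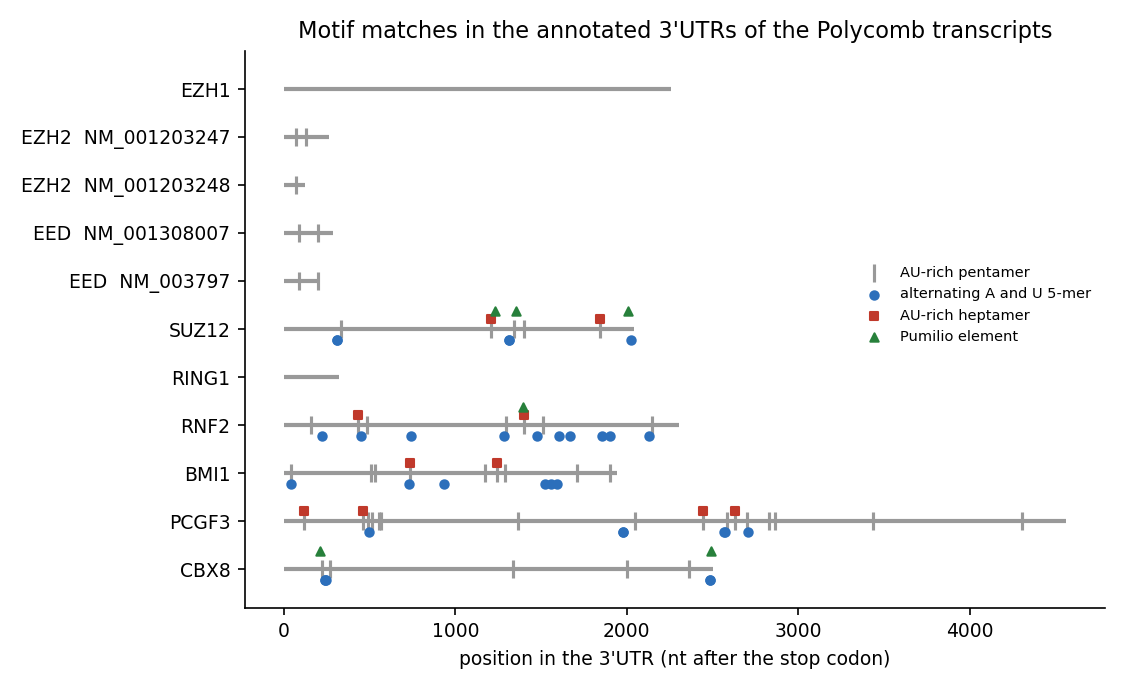
Matches of ATTTA (grey ticks), ATATA (blue dots), TATTTAT (red squares) and TGTANATA (green triangles) along the annotated 3′UTRs of the Polycomb transcripts (x axis, nt after the stop codon; EZH2 transcripts with the same 3′UTR length drawn once). The long 3′UTRs of SUZ12, RNF2, BMI1, PCGF3 and CBX8 carry most of the matches, and those of EZH1 and RING1 carry none. Per kb, ATTTA was densest in the short 3′UTRs of EED and EZH2, at 6.94 to 9.48 from 1 or 2 matches each. Over all 18716 3′UTRs it was 2.26 per kb.

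The other genes of the Polycomb system were taken from lists of 48 genes, 42 of them measured in both populations. Of 11 accessory subunits of PRC2, 10 were measured, and EZHIP was in neither table. Their median was −0.23 in knockdown cells and −0.10 in control cells, none had a difference of 1 or more in size, and the median centred difference was −0.17. MTF2, which guides PRC2 to CpG islands, had the lowest, −0.96, from transcripts at −1.77 and −0.16. JARID2, a DNA-binding partner of PRC2, averaged −0.93 in knockdown cells and −0.60 in control cells. For PHF1, another Polycomb-like protein, a noncoding transcript alone was in both of the authors' deposited tables, at −0.50 in knockdown cells and −0.42 in control cells. Its coding transcript NM_024165 was listed for control cells alone, at −0.06 in the authors' deposited table. At the other end stood RBBP7, a histone-binding subunit, with a centred difference of 0.17, and EPOP, an elongin-binding subunit, with 0.16. LCOR had a centred difference of −0.39 from transcripts that ran from −5.02 to 2.47.

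Of 25 further PRC1 subunits, 23 were measured, with a median of −0.27 in knockdown cells and −0.40 in control cells. In knockdown cells 1 of the 23 lay at −1 or below, E2F6, where 9.20% of all genes did. In control cells 5 of the 23 did, PCGF1, PHC3, BCOR, E2F6 and FBRS, where 9.74% of all genes did. Of the 23, 2 had a centred difference of 1 or more, PHC3 and FBRS, where 4.87% of all genes did, and 2 one of −1 or less, KDM2B and YAF2, where 4.16% did. PHC3, a polyhomeotic protein, owed its 1.75 to transcripts at 4.10 and −0.60. KDM2B, which binds CpG islands, owed its −1.84 to transcripts at −4.42 and 0.74, and YAF2 its −1.47 to transcripts at −3.10 and 0.16. FBRS, with a single transcript, was at −0.02 in knockdown cells and −1.01 in control cells in the authors' deposited tables. BCOR, a corepressor of variant PRC1, averaged −0.94 in knockdown cells and −1.54 in control cells, with transcripts whose centred differences ran from −1.64 to 1.86. E2F6, a repressor in variant PRC1, averaged −1.44 in knockdown cells and −1.40 in control cells, with transcripts whose centred differences ran from −2.28 to 1.11. Its lowest value in knockdown cells belonged to the noncoding transcript NR_103490. Over its 2 coding transcripts, chosen after the values were seen, E2F6 averaged −0.57 in knockdown cells and −1.66 in control cells, a centred difference of 1.10, so its call at −1 in knockdown cells and its near-zero gene difference both rest on the noncoding one.

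The deubiquitinase complex that removes the PRC1 mark, PR-DUB, had 8 of 10 listed genes measured and 7 of these above 0 in centred difference. Over all genes, 6240 of 12480 lay above 0, since the difference was centred on the median. The median centred difference was 0.35, and the medians were −0.02 in knockdown cells and −0.68 in control cells. HCFC1, a cofactor of its catalytic subunit, was at 0.29 in knockdown cells and −0.84 in control cells in the authors' deposited tables. It was the only member with a centred difference of 1 or more, at 1.14, where 4.87% of all genes had one. ASXL2, which activates the enzyme, was at −0.26 in knockdown cells and −1.11 in control cells in the authors' deposited tables. BAP1, the enzyme itself, was at 0.24 in knockdown cells and 0.19 in control cells in the authors' deposited tables. FOXK1 was at −0.35 in knockdown cells and −0.70 in control cells in the authors' deposited tables, and OGT was the member below 0, with a centred difference of −0.15. Of the demethylases that remove the PRC2 mark, KDM6A averaged −1.24 in knockdown cells and −1.97 in control cells, with transcripts whose centred differences were −1.06 and 2.55.

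BCORL1, AUTS2, MBD6 and KDM6B were listed for control cells alone, at −2.50, −1.74, −1.45 and −2.19 in the authors' deposited table, and are named after their values were seen. Of the 564 genes listed for control cells alone, 23.4% lay at −1 or below. These 4 genes enter no difference between the populations.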

How the data were processed

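Per the labels' protocols, total RNA of SW480 cells was depleted of ribosomal RNA before ScriptSeq libraries were made. The submitters' processing notes list STAR 2.5, Cufflinks, Cuffdiff and hg38, with no role for any. The authors deposited a table of log fold changes per RefSeq transcript for each shRNA, per the file headers, taken as log2 because Cuffdiff writes log2. The direction was read from MYC (−1.38 in knockdown and −1.44 in control cells), FOS and JUN, mRNAs of rapid turnover. The tables held 20474 transcripts for knockdown and 21328 for control cells, all within ±10 and none exactly 0; the normalisation, the filter on transcripts and the depth are unknown.

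Symbols came from the RefSeq gene table (GRCh38.p14) and GENCODE release 29, and 131 of 22468 accessions matched neither. Transcripts in both tables were averaged to 1 value per gene. Sizes of 1 on the log2 scale (2-fold) were counted, without a test, since the tables combine libraries. The members and lists were chosen with earlier results of these data known. The genes named outside the 9 were, in each list, those with the 2 highest and 2 lowest centred differences and the 2 lowest mean values. Outside this rule, PCGF1 was named for its value at −1 or below in control cells and PCGF2 as the paralog of BMI1. Genes not listed for both populations were also named. Transcript models were GENCODE transcripts paired with the RefSeq accession, whose ends may differ from those the authors used. Shared sequence was counted as 50-mers. Counting was checked on simulated tables. Python 3.11.15 and pandas 2.3.3 were used. A sequence comparison of the EED transcripts is not reported here.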

Additional observations from a re-analysis of the deposited data

How the results depend on the processing

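The 6 summary values of the Polycomb genes were recomputed under up to 10 other settings, and the median centred difference of −0.02 moved by less than 0.1 under each that was run. The medians moved by more than 0.1 when set relative to ribosomal protein mRNAs, to −0.68 in knockdown and −0.69 in control cells, and with each transcript as a unit, to −0.13 in control cells. The count at −1 or below in knockdown cells was 0, and it was 1 when each gene was given by the transcript whose difference between populations was smallest in size, 1 relative to ribosomal protein mRNAs, 1 at a threshold of 0.5 and 1 by transcript. In control cells the count was 1, against 2, 3, 3 and 2 under these settings. Differences of 1 or more in size numbered 0 genes, 4 at a threshold of 0.5, and 1 by transcript. At −0.5 or below lay 23.9% of all genes in knockdown cells and 24.8% in control cells, and 10.8% of differences lay at −0.5 or below and 12.4% at 0.5 or above. Signs turned for EZH2 in knockdown cells, to −0.10, EED in knockdown cells, to −0.32, and BMI1 in control cells, to −0.19, relative to ribosomal protein mRNAs, and for EED in knockdown cells, to −1.25, when given by that transcript. The centred difference of EZH2 was −0.15 with the median over transcripts and −0.04 without NM_001203248. Counts by transcript, the values without NM_001203248 and those of coding transcripts for listed genes outside the 9 were added after seeing the data. No paired analysis was possible because the tables hold no value per library, and leaving out a replicate was not run for the same reason. Depth is unknown, so transcripts with few reads cannot be recognised.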
